A study of Rattus norvegicus with 6 samples.

Results

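Clotting and fibrinolysis were followed through 9 genes in whole kidneys of salt-fed rats. They are the clotting factor genes F3 and F5, the anticoagulant genes Serpinc1 and Thbd, the fibrinogen chain genes Fga, Fgb and Fgg, and the plasminogen activator genes Plat and Plau. The members were the probe sets whose only gene symbol in the platform annotation was 1 of these 9, or 9 of 14217 genes and 15 of 31099 probe sets. Kidney RNA came from 3 male Dahl salt-sensitive (Dahl S) rats, a strain that becomes hypertensive on salt, and 3 male Lewis rats, and each rat had its own array. All 6 rats started on 8% NaCl chow when 5 weeks old and stayed on it for 8 weeks, so every value below is from a salt-fed animal. No unsalted animals were analysed here, so inheritance and the reaction to salt cannot be told apart in a strain difference.

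Clotting is started by tissue factor, the product of F3, and runs through a cascade in which factor V, the product of F5, is the cofactor of the protease that makes thrombin. Thrombin turns fibrinogen, a hexamer built from pairs of the chains encoded by Fga, Fgb and Fgg, into fibrin. Antithrombin (Serpinc1) inhibits thrombin and factor Xa, thrombomodulin (Thbd) on endothelium redirects thrombin to the activation of protein C, and the plasminogen activators tPA (Plat) and uPA (Plau) lead to the breakdown of fibrin. Most soluble clotting proteins are made in the liver. In the kidney, fibrinogen RNA is known from rodent injury models, and tubules of rodents make and secrete uPA.

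The fibrinogen chain genes lie side by side on chromosome 2, and F5 and Serpinc1 lie on chromosome 13. The 250 bases before the transcription start of these 5 genes are shown, from RefSeq in the GRCr8 assembly, because each fibrinogen gene had a probe set whose Dahl S values all exceeded Lewis and F5 and Serpinc1 are the members with the lowest values in Dahl S relative to Lewis. Each is written 5′ to 3′ on the strand of its gene. Capitals mark matches on either strand to 7 motifs: HNF1 (GTTAAT), STAT (TTCNNNGAA), the interleukin 6 element (CTGGGAA), C/EBP (TTGCNNAA), SP1 (GGGCGG), AP1 (TGANTCA) and the TATA box (TATAAA). The windows are Fga at chr2:170671919-170672168 (plus strand), Fgb at chr2:170700876-170701125 (minus strand), Fgg at chr2:170652833-170653082 (plus strand), Serpinc1 at chr13:75790308-75790557 (plus strand) and F5 at chr13:79046407-79046656 (plus strand).
Fga: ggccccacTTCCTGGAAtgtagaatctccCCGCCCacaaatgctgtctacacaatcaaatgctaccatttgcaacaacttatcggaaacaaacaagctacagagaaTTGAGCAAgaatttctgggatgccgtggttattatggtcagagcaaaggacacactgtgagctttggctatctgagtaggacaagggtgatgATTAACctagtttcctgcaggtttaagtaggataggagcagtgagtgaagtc
Fgb: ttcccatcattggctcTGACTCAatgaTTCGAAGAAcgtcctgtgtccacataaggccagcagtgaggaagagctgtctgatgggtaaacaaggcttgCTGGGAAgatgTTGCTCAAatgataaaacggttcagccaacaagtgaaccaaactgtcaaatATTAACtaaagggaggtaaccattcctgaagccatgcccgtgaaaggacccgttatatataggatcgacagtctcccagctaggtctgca
Fgg: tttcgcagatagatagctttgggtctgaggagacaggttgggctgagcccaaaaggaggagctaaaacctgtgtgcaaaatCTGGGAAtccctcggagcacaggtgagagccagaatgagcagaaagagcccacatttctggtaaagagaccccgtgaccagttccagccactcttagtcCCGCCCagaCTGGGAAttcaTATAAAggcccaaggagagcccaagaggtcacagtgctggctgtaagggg
Serpinc1: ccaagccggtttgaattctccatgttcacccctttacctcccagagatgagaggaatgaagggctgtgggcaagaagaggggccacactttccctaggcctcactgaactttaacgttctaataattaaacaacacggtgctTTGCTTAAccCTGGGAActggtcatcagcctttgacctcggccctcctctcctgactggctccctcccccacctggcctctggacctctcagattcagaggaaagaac
F5: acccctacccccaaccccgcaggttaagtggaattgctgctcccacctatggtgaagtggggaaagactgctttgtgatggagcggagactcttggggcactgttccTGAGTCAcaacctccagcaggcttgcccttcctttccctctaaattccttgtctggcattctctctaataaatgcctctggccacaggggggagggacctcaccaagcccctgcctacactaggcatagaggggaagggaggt

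The HNF1 motif, named for a liver and kidney transcription factor, matched Fga 52 to 47 bases and Fgb 90 to 85 bases before the start, and 6.45% of 33469 RefSeq promoter windows of this length hold it. The STAT motif matched the same pair, Fga at 242 to 234 bases and Fgb at 223 to 215 bases, against 7.67% of windows. The interleukin 6 element matched Fgb at 152 to 146 bases, Fgg at 169 to 163 and at 61 to 55 bases, and Serpinc1 at 98 to 92 bases, against 9.56% of windows. The C/EBP motif, with 9.22% of windows, matched Fga, Fgb and Serpinc1. The remaining matches were SP1 in Fga and Fgg (30.5% of windows), AP1 in Fgb and F5 (6.34%) and a TATA box in Fgg (12.9%), and no matches of different motifs overlapped. A second RefSeq start of Fga lies 18 bases downstream, and the 250 bases before it no longer hold the STAT match. A match describes the letters of this window only, and binding was not measured.

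Signals are given after quantile normalization, in the arbitrary linear units of the array, and differences are log2(signal + 16) in Dahl S minus Lewis. The added 16 is a pseudocount. Folds are taken from these differences, so they are not the ratios of the printed signals. Of the 9 genes 7 had a probe set bright enough to be tested, meaning that 3 or more of the 6 arrays exceeded 61.6, the median over every array and probe set; Fgb and Fgg did not. For each gene the brightest tested probe set stands for it. Of these 7 genes 2 were higher in Dahl S (Fga and F3), 4 were lower (F5, Serpinc1, Thbd and Plat) and Plau did not pass limma's threshold of 0.05 on the adjusted p. Over all 9540 genes tested, 9.04% were called higher and 7.62% lower. Strain ranges did not overlap in 6 of the 7 genes, against 35.1% of all genes tested. Counted over 15797 probe sets instead, 8.50% were called higher, 7.75% lower and 34.4% did not overlap. In whole kidney, fewer cells of a type and less RNA per cell cannot be told apart.

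**Figure D1:**
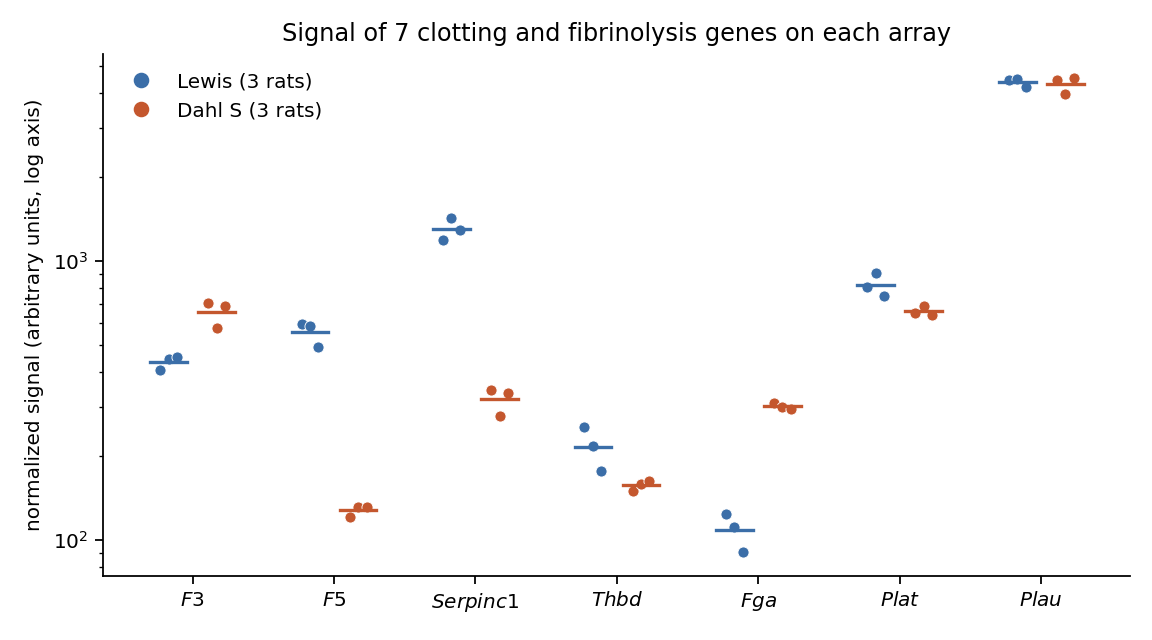
Normalized signal (arbitrary units, log axis) of the 7 tested genes on each array. Points are rats, short lines are means of 3 rats. The Dahl S points of F5 and Serpinc1 sit below every Lewis point, those of Fga and F3 sit above, and those of Plau overlap the Lewis points.

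F5 had the lowest value of any member in Dahl S relative to Lewis. Its single probe set (1374320_at) read 593, 585 and 490 in Lewis rats 1 to 3 and 121, 131 and 131 in Dahl S rats 1 to 3, the order used throughout. The highest Dahl S value was far below the lowest Lewis value. Factor V RNA was thus 3.97-fold lower, with a log2 difference of -1.99 (SE 0.10, limma adjusted p = 8.3e-08). Among all genes tested this was the 8th lowest difference.

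F3, which encodes the receptor that starts the cascade, went the other way. Its probe set (1369182_at) read 406, 444 and 454 in Lewis and 706, 576 and 688 in Dahl S. All Dahl S arrays lay above all Lewis arrays, with Dahl S array 2 nearest to them. The difference was 0.57 (SE 0.10, adjusted p = 0.0014), a 1.49-fold higher level.

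Serpinc1, the antithrombin gene, fell about as much as F5. Its single probe set (1392090_at) read 1185, 1422 and 1285 in Lewis and 344, 277 and 335 in Dahl S. Every Dahl S rat was below every Lewis rat by several-fold. The fall was 3.93-fold (-1.97, SE 0.10, adjusted p = 8.3e-08), the 9th lowest of all genes tested. F5 and Serpinc1 were each read by 1 probe set, and sequence differences between the strains under the probes were not masked.

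Thrombomodulin RNA was modestly lower. The brightest probe set of Thbd (1375951_at) read 255, 216 and 176 in Lewis and 150.0, 159 and 163 in Dahl S. The strains did not overlap, though Lewis array 3 was only slightly above Dahl S array 3. The difference was -0.41 (SE 0.13, adjusted p = 0.044). A dimmer probe set (1368901_at), which was tested only because its Lewis values exceeded the median, gave -0.39 (SE 0.14, adjusted p = 0.077). The third (1368900_at) was not tested and read 26.0 to 70.3 in Lewis and 32.7 to 34.3 in Dahl S. The call of Thbd was lost when Lewis array 1 (-0.29, adjusted p = 0.10) or 2 (-0.40, 0.11) was left out, and likewise for Dahl S array 1 (-0.38, 0.15), 2 (-0.41, 0.11) or 3 (-0.43, 0.10).

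Of the fibrinogen chain genes Fga was higher in Dahl S, and Fgb and Fgg were too dim for the test. The main probe set of Fga (1370992_a_at), the alpha chain gene, read 124, 112 and 90.6 in Lewis and 311, 300.5 and 294 in Dahl S. The 3 Dahl S rats lay close together and well above Lewis. Fga was 2.56-fold higher (1.36, SE 0.11, adjusted p = 7.7e-06), the 35th highest difference of all genes tested. The size depends on the pseudocount: it was 1.49 with none and 1.08 with 64. A second probe set of Fga (1371258_at) read 42.1, 34.1 and 32.5 in Lewis and 63.8, 80.6 and 84.4 in Dahl S. It was tested only because its 3 Dahl S values exceeded the median, so its difference of 0.82 (adjusted p = 0.0032) adds no support.

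Fgb and Fgg, the beta and gamma chain genes, stayed below the median of all values on every array. Fgg (1370086_at) read 11.2, 11.1 and 15.4 in Lewis and 44.3, 42.3 and 31.5 in Dahl S. The strains did not overlap. The brightest probe set of Fgb (1370511_at) read 6.36, 22.4 and 4.87 in Lewis and 42.8, 36.1 and 51.3 in Dahl S, again without overlap. The other probe sets of Fgb (1371234_at and 1388266_at) overlapped between strains and lay between 2.44 and 15.0 on all 6 arrays. When every probe set was tested without a filter, Fgg differed by 0.95 (SE 0.17, adjusted p = 0.012) and the brightest probe set of Fgb by 1.17 (SE 0.25, adjusted p = 0.024), while its other probe sets gave -0.05 and 0.05 (adjusted p = 0.94 and 0.90). At such low signals the size of a log2 difference rests on the pseudocount. In that unfiltered test 4 of the 9 genes passed as higher, with Fgb taken by its brightest probe set alone, and 2 as lower (F5 and Serpinc1), against 4.81% and 3.78% of 14217 genes. Thbd (adjusted p = 0.10) and Plat (0.061) then missed the threshold.

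**Figure D2:**
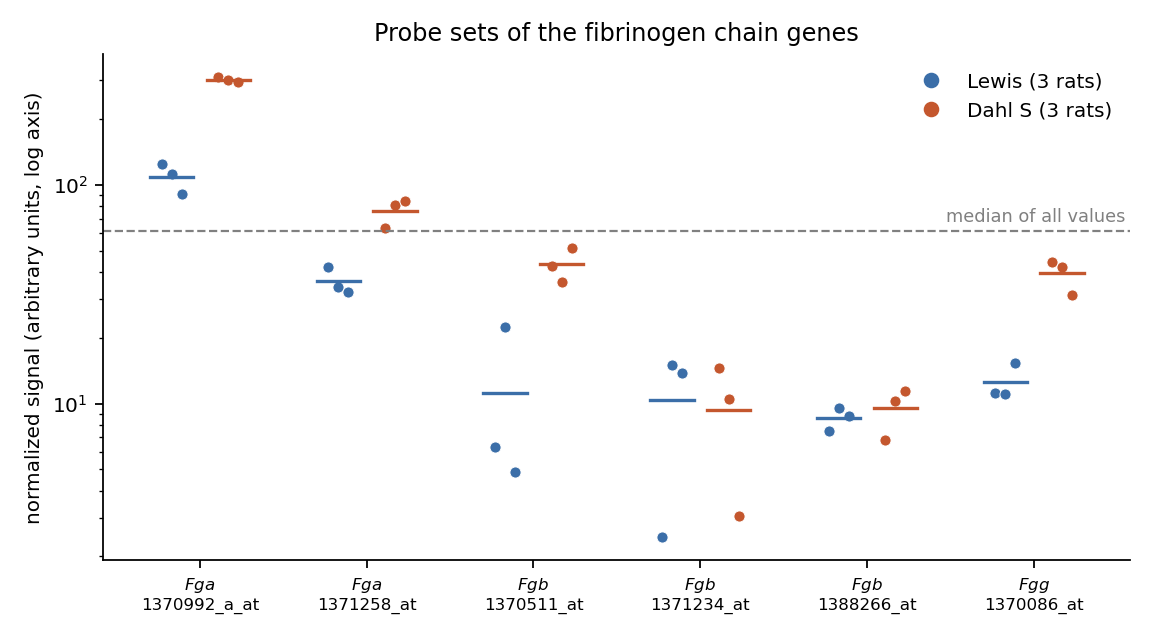
Normalized signal (arbitrary units, log axis) of the 6 probe sets of Fga, Fgb and Fgg on each array, with means of 3 rats as short lines. The dashed line is the median of all values (61.6). Dahl S points lie above Lewis points in both probe sets of Fga, in Fgg and in 1 of 3 probe sets of Fgb.

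The plasminogen activator genes differed little. Plat (1367800_at) read 805, 905 and 746 in Lewis and 652, 688 and 640 in Dahl S, without overlap. The difference of -0.30 (SE 0.09, adjusted p = 0.033) is a 1.23-fold lower level. The call was lost when Lewis array 2 (-0.23, adjusted p = 0.11) was left out, likewise for Dahl S array 1 (-0.29, 0.11), 2 (-0.33, 0.067) or 3 (-0.28, 0.14), and with scaling to a common median (-0.30, 0.063). Plau, the uPA gene, was among the brightest probe sets of the array, at the 99.3 percentile of mean value. It read 4443, 4475 and 4181 in Lewis and 4443, 3959 and 4524 in Dahl S. These ranges overlapped, and the difference was -0.021 with a 95% interval from -0.16 to 0.11 (adjusted p = 0.86). Its other probe set (1398287_at) gave 0.08 with an interval from -0.11 to 0.27.

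The wider list of 56 clotting and fibrinolysis genes, chosen with results of these data known, held 48 genes on the array under 1 symbol and 29 that were tested. Of these 8 were higher in Dahl S, 6 lower and 15 did not pass, with a median difference of -0.029 against 0.0046 over all genes tested. Among the 22 that are not members 6 were higher and 2 lower. Over all genes tested 9.04% were called higher and 7.62% lower. Serpine2, whose product protease nexin 1 inhibits thrombin, uPA and plasmin, was 2.28-fold higher. It read 159, 199 and 166 in Lewis and 429, 419 and 405 in Dahl S (1.19, SE 0.10, adjusted p = 7.9e-06). The other inhibitor of fibrinolysis that was tested, Serpinf2 (antiplasmin), differed by -0.11 (adjusted p = 0.36).

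Some genes whose products sense thrombin or bind plasminogen rose. F2r, the thrombin receptor gene, read 818, 909 and 1039 in Lewis and 1427, 1379 and 1470 in Dahl S, a difference of 0.63 (SE 0.09, adjusted p = 3.7e-04). F2rl1, its relative, differed by 0.14 (adjusted p = 0.45). S100a10 (0.59, SE 0.07, adjusted p = 7.3e-05) and Anxa2 (0.45, SE 0.07, adjusted p = 6.0e-04), whose products form a complex that binds plasminogen on cell surfaces, both rose. A second, dim probe set of Anxa2 read 19.2 to 27.0 in Lewis and 8.79 to 12.7 in Dahl S and was not tested. Plgrkt, a plasminogen receptor gene, differed by 0.11 (limma adjusted p = 0.48) and did not pass. Anxa5, which encodes a protein that covers the phospholipids clotting needs, rose by 0.65 (SE 0.07, adjusted p = 5.5e-05).

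Hrg, which encodes histidine-rich glycoprotein, a plasma protein that binds plasminogen and heparin, was lower. It read 234, 234 and 222 in Lewis and 121, 147 and 138 in Dahl S (-0.71, SE 0.10, adjusted p = 5.6e-04). Serpina10, the inhibitor of factor Xa that works with protein Z, gave -0.43 (SE 0.11, adjusted p = 0.023), and its call was lost without Lewis array 3 or Dahl S array 2 or 3 (-0.41 to -0.39, adjusted p 0.059 to 0.11). Vwf, the von Willebrand factor gene of endothelium and platelets, gave 0.46 (SE 0.14, adjusted p = 0.037). The call of Vwf held without Lewis array 2 (0.61, adjusted p = 0.0089) and was lost without any 1 of the other 5 arrays (0.29 to 0.48, adjusted p 0.059 to 0.13).

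Several central genes of the system did not pass. F2, the prothrombin gene, differed by -0.20 (SE 0.09, adjusted p = 0.16), Tfpi, the inhibitor of tissue factor, by -0.15 (adjusted p = 0.35; -0.25, adjusted p = 0.043, without Lewis array 1, -0.08 without Lewis array 3; 0.10 in its other probe set), Pros1 (protein S) by 0.15 (adjusted p = 0.36) and Proc (protein C) by -0.11 (adjusted p = 0.48). Plg, Plaur, Procr and F13a1 had no tested probe set. Plaur, the uPA receptor gene, read 2.29 to 13.7 in Lewis and 21.5 to 31.0 in Dahl S in its brighter probe set (1387269_s_at). Its other probe set (1371286_at) overlapped between strains, at 0.60 to 3.04 in Lewis and 0.85 to 20.4 in Dahl S. Both lay below the median of all values on every array. A2m, the gene of the broad protease inhibitor alpha-2-macroglobulin, was named after its values were seen: it read 1.25 to 8.27 in Lewis and 57.7 to 63.7 in Dahl S, and was not tested because only 2 arrays exceeded the median.

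**Figure D3:**
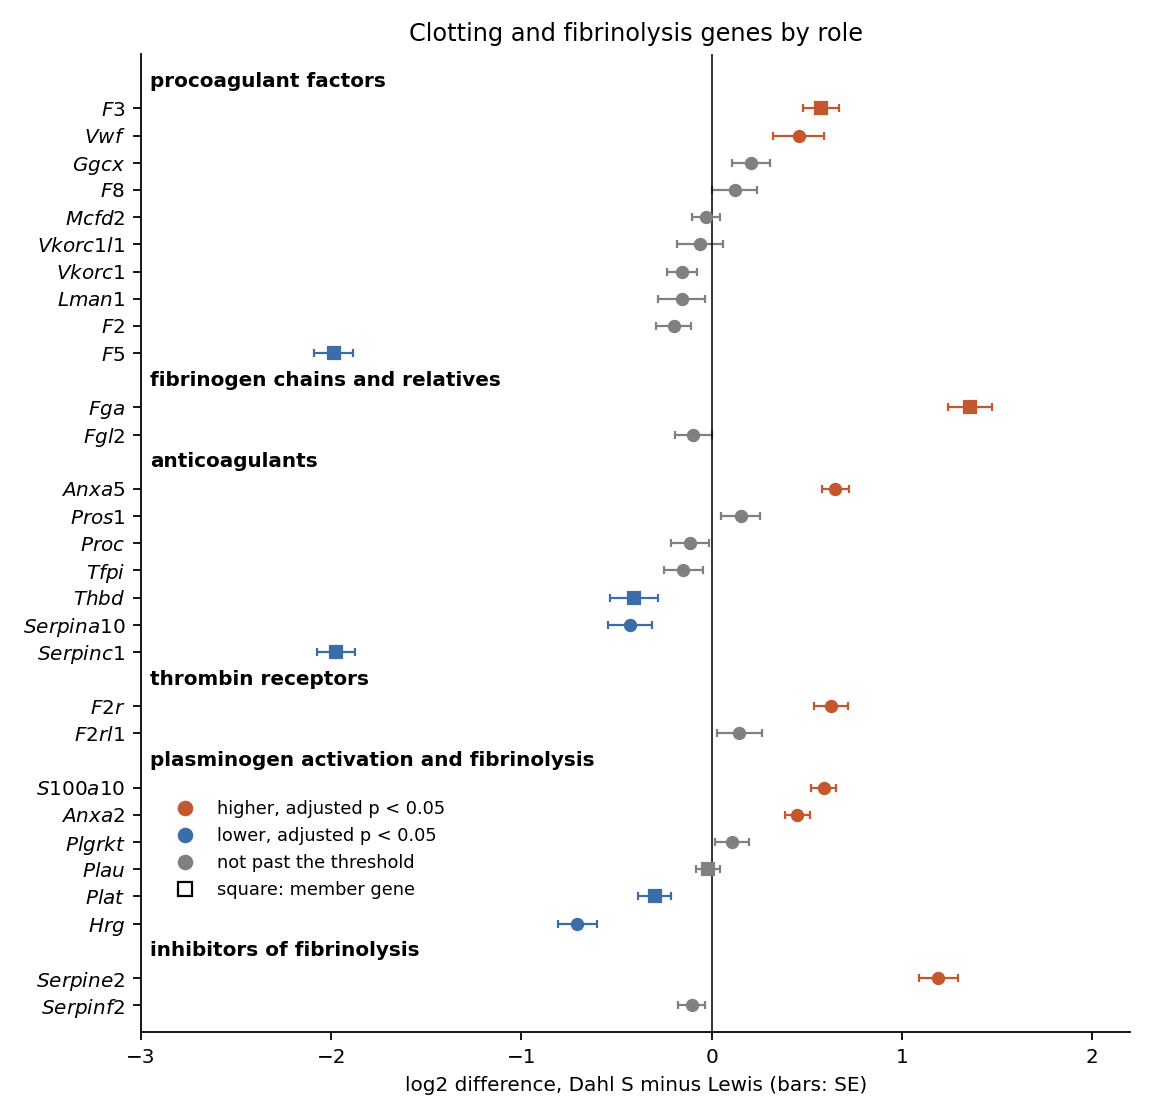
Log2 difference, Dahl S minus Lewis, of the 29 tested clotting and fibrinolysis genes by role, with SE bars. Squares are the members, and colour gives the direction of genes past an adjusted p of 0.05. Most genes lie near 0, F5 and Serpinc1 lie near -2 and Fga and Serpine2 lie above 1.

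Marker lists of other cells were set beside these values. The counts of each list in the main setting stand against 9.04% called higher and 7.62% called lower over all genes tested. The tissue carried its kidney markers: Kap, an androgen-regulated proximal tubule gene, read 9708 to 10548 over the 6 arrays, and Lrp2 (megalin) 5214 to 5729. Of 13 hepatocyte markers on the array 2 were tested. The defining marker Alb (albumin) read 2.92 to 34.2 over its 2 probe sets and 6 arrays, below the median of all values. The summed signal of the 2 tested hepatocyte markers was 126 to 165 in Lewis and 147 to 153 in Dahl S. This sum joins differences in opposite directions, so it gives no measure of hepatocyte content. Of the tested pair Cps1, which encodes a mitochondrial enzyme of the urea cycle, was tested only because its 3 Dahl S values exceeded the median, and read 27.1 to 40.5 in Lewis and 64.7 to 68.6 in Dahl S. Apoh, a plasma protein gene, differed by -0.41 (adjusted p = 0.073).

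Some endothelial markers fell, as did Thbd and Plat, which endothelium expresses. Of 12 tested, 0 rose, 3 fell and 9 did not pass, with a median of -0.27, and their summed signal was 5331 to 5579 in Lewis and 4426 to 4516 in Dahl S. The count that fell was 6 without Lewis array 3 and 2 without any 1 Dahl S array. Without normalization 0 passed in limma's test (0 also with an unadjusted p under 0.05). The median was then 0.17, below the 0.41 of all genes tested in that setting. Plvap fell by 0.54 (SE 0.10), Pecam1 by 0.40 (SE 0.11) and Emcn by 0.36 (SE 0.08) on the log2 scale, while Kdr differed by -0.21 (adjusted p = 0.12). Egfl7 (0.15, and -0.26 in its other tested probe set), Icam2 (0.10) and Tek (0.02) lay above 0 and did not pass. The other tested markers of the list lay below 0. Vwf, also a gene of endothelium but not on this list, was called higher, with the limits given above. The part of endothelial content in the values of Thbd and Plat was not tested. The platelet markers tested, 2 in number, gave 0 calls in limma's test and 0 with an unadjusted p under 0.05 (Pf4 0.19, Itga2b -0.20).

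Most tested markers of injury, acute phase, erythrocytes and macrophages were called higher, as were Fga and F3. Of 13 tubular injury markers 11 rose and 0 fell, with summed signals of 8268 to 9045 in Lewis and 16217 to 16336 in Dahl S. Havcr1 read 38.7 to 75.6 in Lewis and 552 to 607 in Dahl S. It passed the filter through its Dahl S values, since its Lewis values lay on both sides of the median. A stricter filter, with all 6 arrays above the median, left 12 injury markers tested, of which 10 rose. Of 10 tested genes of the acute phase and of interleukin 6 signalling 8 rose and 0 fell (median 0.58; summed signal 4108 to 4330 in Lewis and 5535 to 5917 in Dahl S), among them Lbp, which was tested only because its Dahl S values exceeded the median, C3, the receptor subunit gene Il6st (0.60, SE 0.08, adjusted p = 2.5e-04) and the transcription factor gene Stat3 (0.37, SE 0.07, adjusted p = 0.0043; 0.12 in its other tested probe set). The stricter filter left 8 genes of this list tested, of which 6 rose. Without normalization 5 rose in limma's test (8 with an unadjusted p under 0.05). Jak1 (0.09) and Cebpb (-0.18) did not pass, and Lcn2 is on both this list and the injury list. Socs3, which Stat3 induces, was not tested and read 28.0 to 38.7 in Lewis and 48.2 to 63.9 in Dahl S. Of the other untested genes of the list, A2m, Serpina3n and Il6r were higher without overlap. Il6, Hp, Orm1, Crp, Itih3, Itih4 and Socs1 overlapped between strains at low signals. Of 4 erythrocyte genes 3 rose (summed signal 4425 to 5445 in Lewis and 6130 to 6580 in Dahl S) and of 11 macrophage genes 7 rose (4535 to 4701 and 5677 to 5887). Without Dahl S array 2 the erythrocyte count was 0 in limma's test (3 with an unadjusted p under 0.05), without a filter or without normalization it was 1, and the macrophage count was 4 without Dahl S array 1 and 3 without normalization. Proximal tubule markers included 6 of 14 that fell and 0 that rose, with Cyp2e1 at -0.72 and Slc22a6 at -0.69. Scaling to a common median gave 10 that fell (median -0.35 against -0.14), and without normalization 0 did in limma's test (0 also with an unadjusted p under 0.05). These counts use the brightest probe set, which did not pass for Slc13a1, Hnf4a or Slc34a1 in the main setting. A dimmer probe set of Slc13a1 was called higher there (0.33, limma adjusted p = 0.0098). Dimmer probe sets of Hnf4a (-0.55 and -0.50) and Slc34a1 (-0.62) were called lower. The part of these cells and processes in the values of the clotting genes was not tested.

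The genes whose profile over the 6 arrays was most like that of Fga were Lcn2, Tnfrsf12a and Krt19, all of them on the injury list. The root mean square distance between profiles centred on their own means was 0.04, 0.06 and 0.10 on the log2 scale, and the differences of these genes between strains were 1.33, 1.33 and 1.31. For F5 they were Rdh16 (distance 0.09), Rbp4 (0.11) and Serpinc1 (0.16), with differences of -2.12, -1.95 and -1.97. Genes with nearly the same strain difference come out close by this measure. The likeness therefore mostly restates those differences, adds no support to them and is a description of 6 arrays.

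Because Serpinc1 and F5 share a stretch of chromosome 13 in GRCr8, the tested genes between them and within 2 Mb outside were read off as well. Of 15 genes between them 1 was higher and 3 lower, and of 20 outside 2 were higher and 2 lower, together 22.9% called against 16.7% of all genes tested. Their median difference was -0.0045, and the lowest, named after their values were seen, were Fmo2 (-0.77), Kiaa0040 (-0.76) and Nme7 (-0.66). Differences as low as those of Serpinc1 and F5 were thus absent among the 35 tested neighbours. Around the fibrinogen genes, within 1 Mb, 5 other genes were tested: the guanylate cyclase subunit genes Gucy1b1 (0.87) and Gucy1a1 (0.64; -0.30, not past, in a second probe set) were higher, Sfrp2 was lower (-1.18), and Plrg1 (0.24, adjusted p = 0.057) and Tmem131l (0.07) did not pass.

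**Figure D4:**
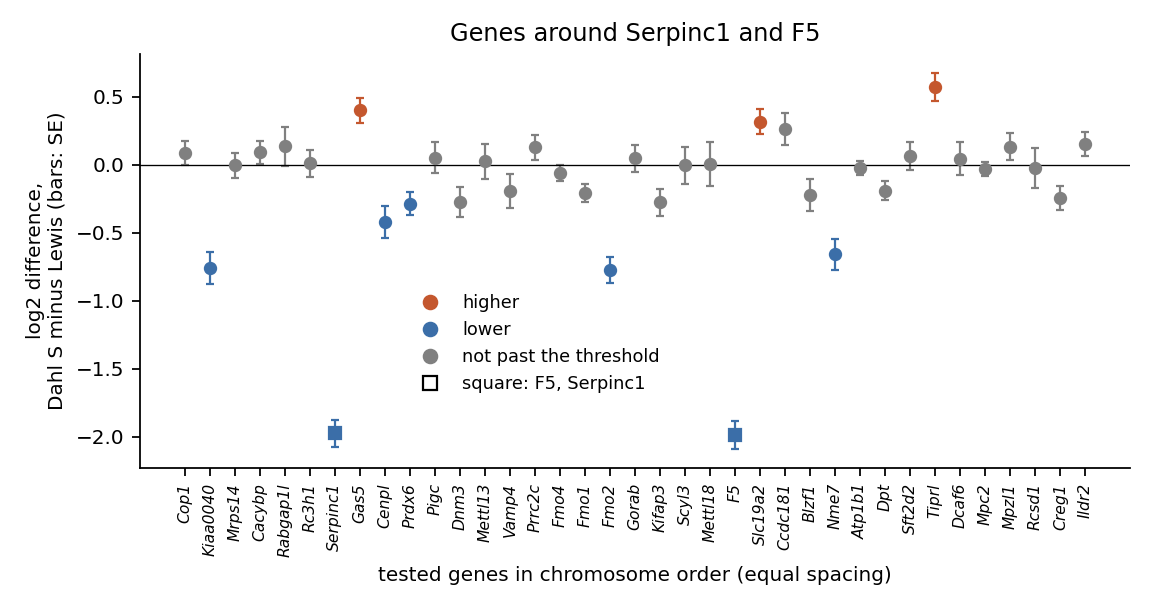
Log2 difference, Dahl S minus Lewis, with SE bars, of the 37 tested genes from 2 Mb before Serpinc1 to 2 Mb after F5, in chromosome order at equal spacing. Squares mark Serpinc1 and F5, near -2, while the 35 other genes lie between -0.77 and 0.57.

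The arrays differed in brightness before normalization, with 2% trimmed means of 119 to 230 in Lewis and 205 to 250 in Dahl S, and this bears on the small differences. In the deposited signals without normalization the median of all genes tested was 0.41 higher in Dahl S. Relative to that shift Thbd lay at -0.40, Plat at -0.29, F3 at 0.60, Fga at 1.36, F5 at -1.97 and Serpinc1 at -1.96. Without normalization F5, Serpinc1 and Fga kept their calls and F3 missed the threshold (1.01, adjusted p = 0.064). Thbd (0.015), Plat (0.13) and Plau (0.28) then lay above 0 and did not pass.

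**Figure D5:**
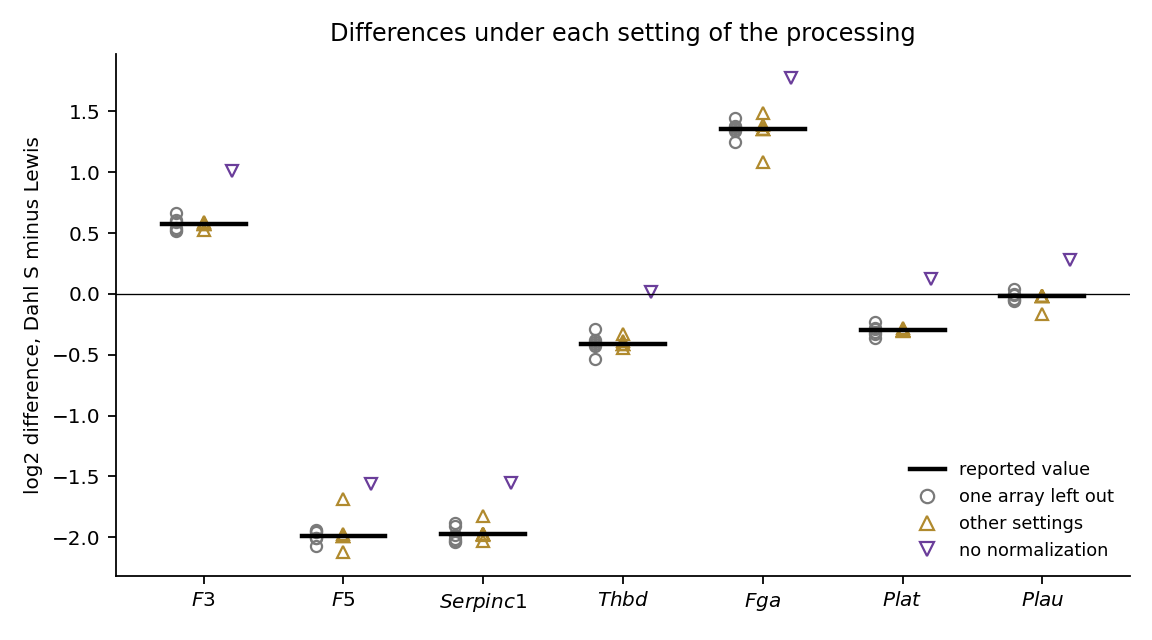
Log2 difference, Dahl S minus Lewis, of the 7 tested genes under each setting. Thick lines are the reported values, circles the fits with 1 array left out, triangles pointing up the other settings and triangles pointing down the deposited signals without normalization, which are shifted upwards for every gene and lie above 0 for Thbd, Plat and Plau.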

How the data were processed

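Expression arrays were run on kidneys of 3 rats of each strain, and groups and replicate numbers came from the sample titles. Per the labels, the authors computed the deposited linear signal intensity of each probe set in GeneChip Operating Software version 1.4. Neither its scaling target nor present or absent calls were used here. The 57 control probe sets were left out and log2(signal + 16) was quantile normalized, so differences are relative to the typical probe set. A probe set was tested if 3 or more of 6 arrays exceeded the overall median, which left 15797. Strains were compared by limma 3.58.1 in R 4.3.3 using a mean-dependent prior variance, and two-sided p-values were adjusted by Benjamini-Hochberg over all probe sets tested; steps were tested on simulated data. An exact permutation test of 3 against 3 cannot go below p = 0.1. The p-values measure the spread between these rats, and the number of arrays limits the precision.

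Platform symbols were updated through gene identifiers to a RefSeq table of GRCr8, in which 20764 of 21268 annotated probe sets matched; 20826 probe sets had 1 symbol, 436 several and 9780 none here. RefSeq promoter windows matched 6 of the 9 genes, and F3, Thbd and Plat have none here. The members and lists were chosen with earlier results of these data known. The text names the members, up to 5 called genes per role of the wider list, up to 3 per marker list and some genes given whatever their values. The design text speaks of 3 independent experiments without tying replicate numbers to them. Same-numbered arrays of the strains had deviations with correlations of -0.05, -0.10 and 0.11, not all above 0.1, so the numbers were not taken as pairs. Different-numbered arrays gave -0.07 to 0.13. With 3 arrays per strain such values cannot exclude pairing.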

Additional observations from a re-analysis of the deposited data

How the results depend on the processing

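The directions of F5, Serpinc1, Fga and F3 held under every alternative run, and the calls of F5, Serpinc1 and Fga did too; F3 missed the threshold without normalization (1.01, adjusted p = 0.064). Without normalization the values of Plat (0.13), Thbd (0.015), Plau (0.28), Vkorc1 (0.24), Serpinf2 (0.29), Mcfd2 (0.38), Tfpi (0.29), Proc (0.33), Fgl2 (0.32), F2 (0.22), Lman1 (0.26) and Vkorc1l1 (0.34) turned positive, and none of these passed; the calls were 1 higher and 2 lower among the members, 3 higher and 2 lower in the wider list, and 616 higher and 58 lower over all probe sets. Without a filter 4 members were higher and 2 lower, 10 genes of the wider list were higher and 3 lower, 1085 probe sets were higher and 948 lower in all, and Plat gave -0.30 (adjusted p = 0.061) and Thbd -0.41 (0.10). Without a variance trend 2 members were lower, with Plat at -0.30 (0.070) and Thbd at -0.41 (0.061). Scaling to a common median gave -0.30 for Plat (0.063) and -0.029 for the second probe set of Plau. With 1 array left out in turn the members gave 2 higher throughout and 2 to 4 lower, the wider list 7 to 8 higher and 3 to 6 lower, and all probe sets 763 to 1449 higher and 725 to 1338 lower. Plat then ran from -0.36 to -0.23, Thbd from -0.54 to -0.29 and Plau from -0.057 to 0.039. The replicate number as a block, which the deviations of the arrays gave no basis to treat as pairs, left 2 members higher and 4 lower, 8 and 6 in the wider list, and 1295 and 1199 over all probe sets. The cause of these changes was not tested. With no detection calls, dim genes such as Fgb and Fgg are limited by signal near the background.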
